A study of Mus musculus with 34 samples.

Results

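Channel proteins in the surface and tubular membranes set how excitable a skeletal muscle fiber is and how water enters and leaves it. The transcripts described here belong to 9 such genes: the sodium channel genes Scn4a and Scn4b, the chloride channel gene Clcn1, the calcium channel genes Cacna1s and Cacnb4, the potassium channel genes Kcnab1, Kcna7 and Kcnn3, and the water channel gene Aqp4. They were taken by name from the 46071 genes of the count table, and all 9 passed the filter on low counts, which kept 13646 genes. The genes were proposed with results of these comparisons already known. For Kcnab1 and Cacnb4 these were changes in MIGF1RKO muscle, and for the other genes the values that led to the choice are not recorded. Every change and adjusted p of a channel gene below is therefore a description of these libraries and no independent support for a pattern.

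An action potential starts at the neuromuscular junction and spreads along the fiber through voltage-gated sodium channels. Potassium channels and a large chloride conductance return the membrane to rest, and in the tubules the voltage sensor Cav1.1 turns the electrical signal into calcium release. Denervated fibers are known to switch part of this set, for example to the potassium channel SK3. Aquaporin 4, anchored to the dystrophin complex, is the main water channel of fast fibers.

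RNA came from quadriceps and gastrocnemius, powdered and mixed, of male mice of 4 knockout lines, each kept as a colony of its own with floxed littermates as controls. MIRKO (n = 4) is a muscle-specific deletion of the insulin receptor, set against IRlox (n = 3). MIGF1RKO (n = 5) is the same for the IGF-1 receptor, set against IGFRlox (n = 4). MIGIRKO (n = 6) is labelled as the deletion of both receptors and was compared with IRIGFRlox (n = 3). QKO (n = 7), in which FoxO1, FoxO3 and FoxO4 are deleted together with both receptors, was compared with Qlox (n = 2). The Cre transgene of MIRKO, MIGIRKO and QKO is driven by Acta1, the skeletal actin gene; the driver of MIGF1RKO and the ages of the mice are not given in the sources used here. All lines share a mixed C57 and 129 background in which Nnt, a nuclear gene for a mitochondrial enzyme, varies. Where nothing says how libraries of a group relate, a p-value measures only the spread between these libraries.

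Library totals ran from 1499025 to 7581198 counts, and levels are given as CPM, the usual unit for a gene's counts relative to its library total, with each total scaled by edgeR's TMM factor. The targeted genes matched most labels: Insr was lower in MIRKO, MIGIRKO and QKO (log2 changes of -1.83, -1.68 and -1.99), and Foxo1 and Foxo4 were lower in QKO (-2.98 and -4.57). Igf1r showed no loss in MIGIRKO (0.00, adjusted p = 0.99) and was not called in MIGF1RKO (-0.75, adjusted p = 0.10), and Foxo3 showed none in QKO (0.29, adjusted p = 0.71). Foxo4, which the MIGIRKO label leaves intact, was called lower in MIGIRKO (-0.73, adjusted p = 0.0010), with ranges that overlapped those of IRIGFRlox. All 7 skeletal muscle markers were detected in every library. The library labelled MIRKO 4 correlated best with MIGIRKO 3 (r = 0.981 across the 13646 genes, against 0.948 with its closest MIRKO library), whereas for MIGIRKO 6 the best match was MIRKO 3 (r = 0.973, against 0.952 with its closest MIGIRKO library). Channel gene results in MIRKO are given with and without MIRKO 4. In whole muscle, fewer cells of a type and less RNA per cell cannot be told apart.

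Promoter sequence is shown for 4 of these genes because their transcripts were lower in MIGIRKO muscle and their windows hold E-boxes. Myogenic factors such as MyoD and myogenin bind some E-boxes, and which factor binds those shown here was not tested. The windows are the 250 bases before RefSeq transcript starts in GRCm38.p6, read 5′ to 3′ on the gene's strand. Capitals mark each E-box, searched as CANNTG on both strands; no E-box overlaps the MEF2 match described next. The windows are Clcn1 at chr6:42286435-42286684 on the plus strand, Kcna7 at chr7:45405710-45405959 on the plus strand, Cacna1s at chr1:136052561-136052810 on the plus strand, and the starts numbered 2 and 3 of Kcnab1 at chr3:65108764-65109013 and chr3:65187853-65188102, both on the plus strand.
Clcn1: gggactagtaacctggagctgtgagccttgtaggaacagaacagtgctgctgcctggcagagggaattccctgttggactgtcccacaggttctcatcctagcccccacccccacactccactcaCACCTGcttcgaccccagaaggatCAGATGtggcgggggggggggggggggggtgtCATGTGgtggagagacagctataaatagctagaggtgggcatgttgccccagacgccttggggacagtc
Kcna7: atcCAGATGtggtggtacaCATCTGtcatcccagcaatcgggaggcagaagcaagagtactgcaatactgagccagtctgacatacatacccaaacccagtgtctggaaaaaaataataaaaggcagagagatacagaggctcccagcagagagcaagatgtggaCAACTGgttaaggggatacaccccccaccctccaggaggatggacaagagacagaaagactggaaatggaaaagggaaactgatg
Cacna1s: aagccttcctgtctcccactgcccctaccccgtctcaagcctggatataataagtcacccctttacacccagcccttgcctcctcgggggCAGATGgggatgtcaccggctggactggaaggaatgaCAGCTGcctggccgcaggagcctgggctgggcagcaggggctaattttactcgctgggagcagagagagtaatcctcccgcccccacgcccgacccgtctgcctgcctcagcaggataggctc
Kcnab1 start 2: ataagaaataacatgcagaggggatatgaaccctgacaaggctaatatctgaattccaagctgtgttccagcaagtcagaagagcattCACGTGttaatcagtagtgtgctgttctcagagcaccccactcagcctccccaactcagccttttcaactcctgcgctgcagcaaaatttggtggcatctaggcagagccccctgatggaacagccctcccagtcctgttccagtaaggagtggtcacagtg
Kcnab1 start 3: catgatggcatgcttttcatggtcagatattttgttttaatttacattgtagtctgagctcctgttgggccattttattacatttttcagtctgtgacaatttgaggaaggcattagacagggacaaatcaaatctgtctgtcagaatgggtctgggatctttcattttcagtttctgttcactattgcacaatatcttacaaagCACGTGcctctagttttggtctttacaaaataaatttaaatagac

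E-boxes lay 125, 101 and 69 bases before the Clcn1 start, 247, 231 and 85 bases before that of Kcna7, and 160 and 123 bases before that of Cacna1s. Both Kcnab1 windows shown hold CACGTG, 162 bases before start 2 and 45 bases before start 3. The window of Kcnab1 start 1, not shown, holds CAAGTG, 113 bases before that start. RefSeq windows were found for 8 of the 9 genes, 12 windows in all. Of these, 7 windows of 5 genes held an E-box, against 66.2% of the 32841 promoters searched. The FoxO element GTAAACA, searched on both strands, was in 0 of the 12 windows and in 3.17% of all promoters. A MEF2 motif was found only in the Clcn1 window, 51 bases before the start, and in 0.509% of all promoters. The E-box share was not above that of all promoters, and a match or its absence says nothing about binding.

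**Figure D1:**
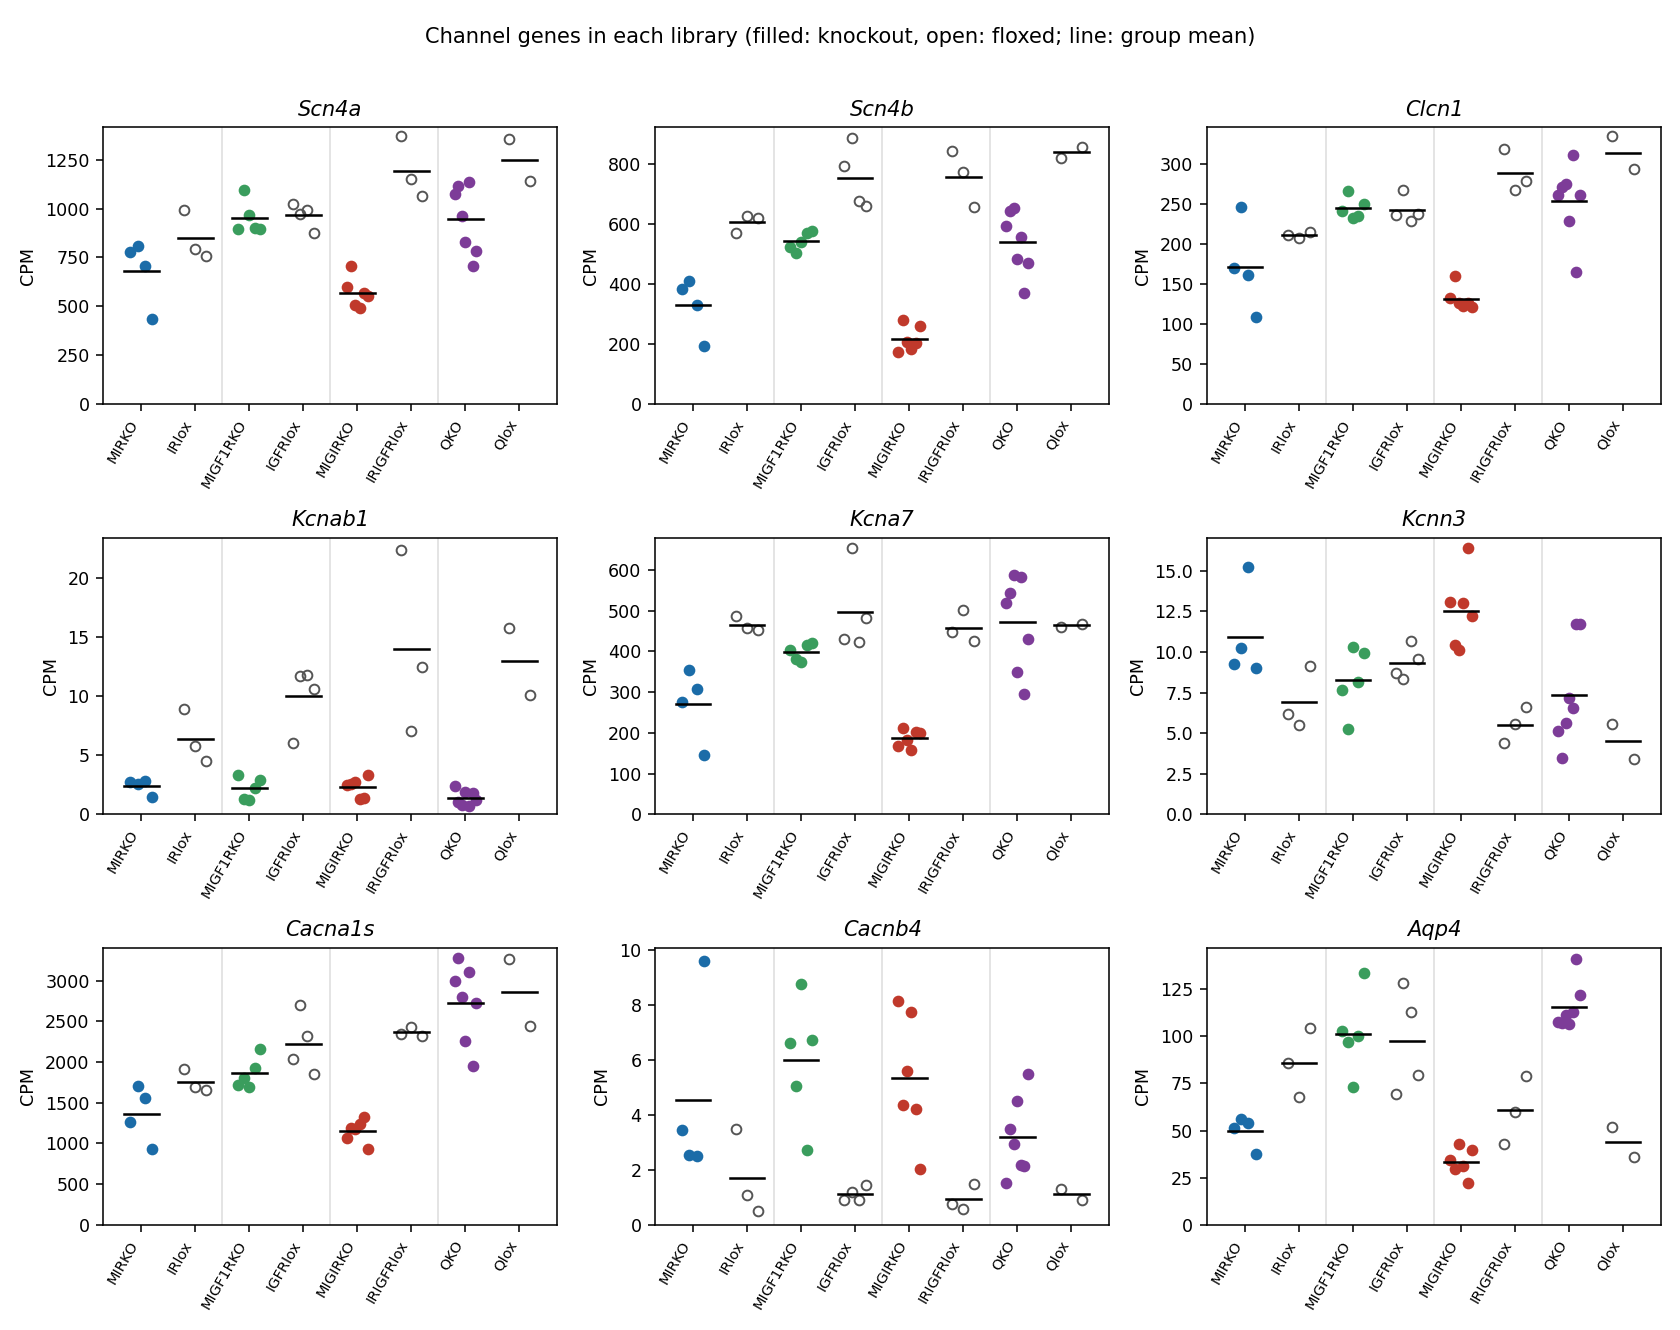
CPM of each of the 9 channel genes in the 34 libraries, on linear axes, with the knockout group left of its floxed controls; points are libraries and bars group means. Scn4a, Scn4b, Clcn1, Kcna7 and Cacna1s are lowest in MIGIRKO, Kcnab1 is low in all 4 knockout groups, and Aqp4 is highest in QKO.

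Scn4a (ENSMUSG00000001027, chromosome 11, 106318592 to 106353288, minus strand, GRCm38) encodes Nav1.4, the pore of the sodium channel that carries the muscle action potential. Its lowest, median and highest values were 491, 560 and 707 CPM in MIGIRKO, against 1370, 1150 and 1062 CPM in the 3 IRIGFRlox libraries. The groups did not overlap, and the log2 change was -1.07 ± 0.16 (SE, adjusted p = 9.1e-06). In QKO it was 709, 963 and 1136 CPM at the lowest, median and highest, against 1357 and 1143 CPM in Qlox. These groups also stayed apart, narrowly, with a change of -0.41 ± 0.18 that was not called (adjusted p = 0.40). MIRKO libraries had 779, 808, 708 and 436 CPM, against 993, 794 and 757 CPM in IRlox, which overlap (-0.31, adjusted p = 0.36). The lowest of these is the library labelled MIRKO 4, which lies below all MIGIRKO libraries. MIGF1RKO averaged 951 ± 87.3 CPM (SD) and IGFRlox 966 ± 64.5 CPM, a change of -0.02 (adjusted p = 0.99). Ordered by mean level, the groups ran Qlox, IRIGFRlox, IGFRlox, MIGF1RKO, QKO, IRlox, MIRKO and MIGIRKO, and among neighbours only the mean ± SD ranges of IRIGFRlox and IGFRlox did not overlap.

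Scn4b (ENSMUSG00000046480, chromosome 9, 45138395 to 45154152, plus strand) encodes β4, an accessory sodium channel subunit that tunes gating. It was the gene with the lowest adjusted p of the 9 in MIGIRKO. Its lowest, median and highest levels there were 175, 205 and 279 CPM, against 846, 774 and 657 CPM in IRIGFRlox, 3.48-fold lower (log2 change -1.80 ± 0.17, adjusted p = 1.2e-08). Every MIGIRKO library was below every control. In MIRKO, Scn4b had 385, 410, 332 and 193 CPM, against 570, 627 and 620 CPM in IRlox, again with no overlap. That change of -0.88 ± 0.19 was called (adjusted p = 0.026), but not without MIRKO 4 and MIGIRKO 6 (-0.69, adjusted p = 0.089), with runs of libraries as a block (adjusted p = 0.055) or with the compared groups alone (adjusted p = 0.13). Leaving out IRlox 1, IRlox 2, IRlox 3, MIRKO 3 or MIRKO 4 alone also ended the call, with adjusted p from 0.059 to 0.13.

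The accessory subunit was also below its controls, uncalled, in the other knockouts. MIGF1RKO held 504 to 576 CPM of Scn4b, against 660 to 888 CPM in IGFRlox (-0.48 ± 0.17, adjusted p = 0.25). QKO had 371, 559 and 655 CPM at the lowest, median and highest, against 822 and 857 CPM in Qlox (-0.64 ± 0.20, adjusted p = 0.17). The ranges stayed apart in both pairs. By mean level the order of Scn4b was Qlox, IRIGFRlox, IGFRlox, IRlox, MIGF1RKO, QKO, MIRKO and MIGIRKO. Neighbours whose mean ± SD ranges did not overlap were IGFRlox and IRlox, IRlox and MIGF1RKO, and QKO and MIRKO.

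Within a library, the ratio of Scn4b to Scn4a counts per kilobase of exon needs no scaling of library totals. It was 54.2% ± 8.28 (SD) in MIGIRKO and 89.9% ± 4.49 in IRIGFRlox, with no overlap. In MIRKO it was 67.6% ± 4.09 and in IRlox 103% ± 18.9, also apart. MIGF1RKO libraries ran from 64.9% to 91.1% and IGFRlox libraries from 96.2% to 129%. In QKO, where the values were 81.0% ± 8.53 against 95.8% ± 14.4 in Qlox, the groups overlapped. The Scn4b to Scn4a ratio was thus below all controls in every library of 3 knockout lines; it was not tested, because both genes were chosen with their values known.

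**Figure D2:**
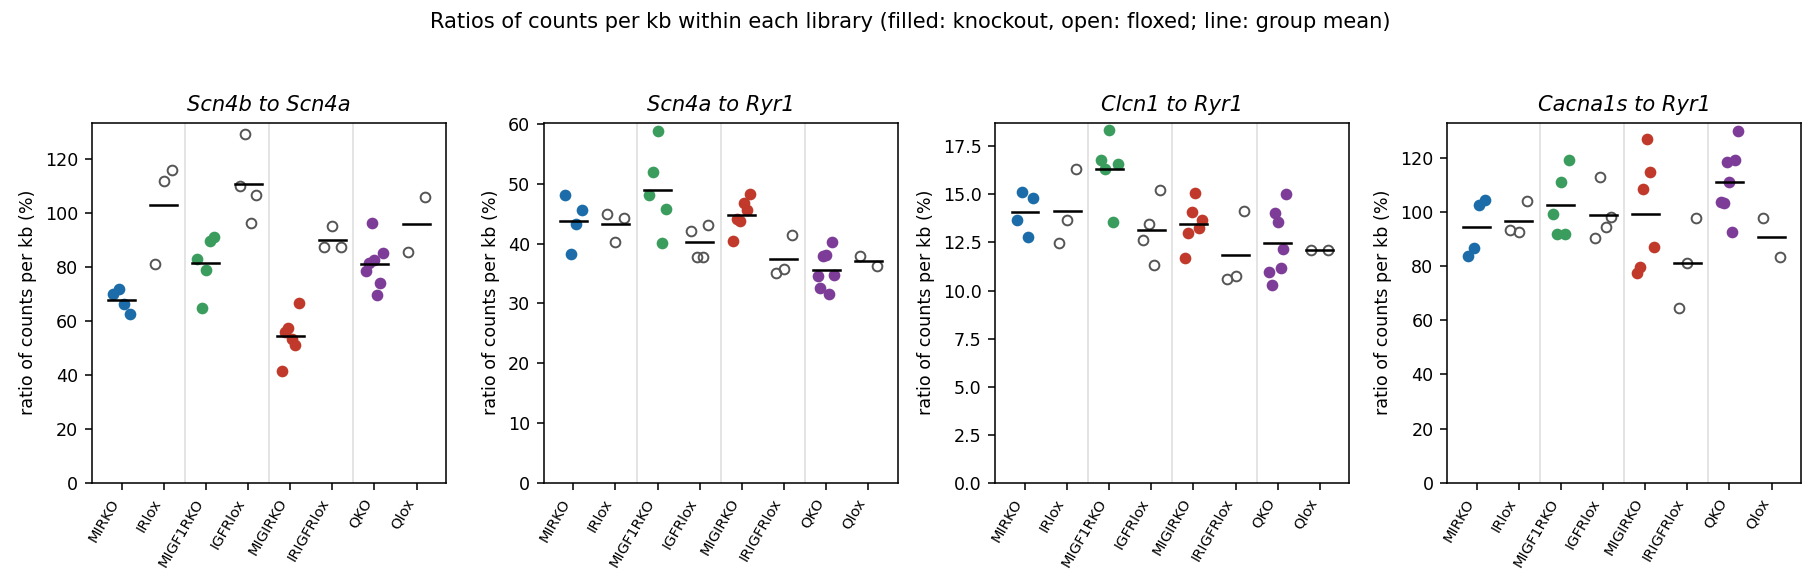
Within-library ratios of channel transcripts, as percent of counts per kilobase of exon, by group with each knockout left of its floxed controls; points are libraries and bars group means. The ratio of Scn4b to Scn4a lies at 54.2% in MIGIRKO against 89.9% in IRIGFRlox, while Scn4a relative to Ryr1 lies at 44.8% against 37.4%.

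Clcn1 (ENSMUSG00000029862, chromosome 6, 42286685 to 42315756, plus strand) encodes ClC-1, the chloride channel that stabilises the resting membrane and whose loss causes myotonia. It had 121, 126 and 161 CPM at the lowest, median and highest in MIGIRKO, against 319, 267 and 279 CPM in IRIGFRlox. The groups were apart, and Clcn1 fell by 1.13 on the log2 scale (SE 0.16, adjusted p = 3.2e-06). In the other lines it was not called: QKO ranged from 166 to 311 CPM, against 335 and 294 CPM in Qlox (-0.31, adjusted p = 0.51). MIRKO libraries held 170, 246, 161 and 109 CPM of Clcn1, against 212, 207 and 215 CPM in IRlox (-0.30, adjusted p = 0.38), the library labelled MIRKO 4 again the lowest. MIGF1RKO averaged 245 ± 13.6 CPM and IGFRlox 243 ± 17.2 CPM (0.01, adjusted p = 0.99). All 3 of these pairs overlapped. The mean levels ran Qlox, IRIGFRlox, QKO, MIGF1RKO, IGFRlox, IRlox, MIRKO and MIGIRKO, and only IGFRlox and IRlox were neighbours with mean ± SD ranges apart. Of the exons of Clcn1, 445 of 5428 bases overlap exons of Fam131b on the other strand, and whether counting used strand is not given in the sources used here.

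Cacna1s (ENSMUSG00000026407, chromosome 1, 136052750 to 136119822, plus strand) encodes Cav1.1, the voltage sensor that opens the calcium release channel Ryr1. Its lowest, median and highest levels were 929, 1178 and 1323 CPM in MIGIRKO, against 2348, 2431 and 2323 CPM in IRIGFRlox, a change of -1.04 ± 0.16 (adjusted p = 1.7e-05). No MIGIRKO library came near the controls. In QKO, Cacna1s had 1955, 2795 and 3283 CPM at the lowest, median and highest, against 3265 and 2449 CPM in Qlox, which overlap (-0.07, adjusted p = 0.93). MIRKO ranged from 928 to 1705 CPM, against 1652 to 1919 CPM in IRlox (-0.36, adjusted p = 0.30). MIGF1RKO ranged from 1697 to 2164 CPM, against 1848 to 2707 CPM in IGFRlox (-0.26, adjusted p = 0.63). Mean levels ran Qlox, QKO, IRIGFRlox, IGFRlox, MIGF1RKO, IRlox, MIRKO and MIGIRKO, and every neighbouring pair overlapped in its mean ± SD. Exons of the antisense gene Gm37759 cover 1309 of the 6550 exon bases of Cacna1s.

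Cacnb4 (ENSMUSG00000017412, chromosome 2, 52428320 to 52676831, minus strand) encodes a β4 subunit of voltage-gated calcium channels, whereas muscle mainly uses β1 from Cacnb1. It was a low transcript whose mean was above that of the floxed controls in each of the 4 lines. In MIGF1RKO it had 6.64, 5.07, 8.79, 2.73 and 6.74 CPM, against 0.899, 1.19, 0.893 and 1.46 CPM in IGFRlox. These groups did not overlap, with a change of 2.39 ± 0.52 (adjusted p = 0.023). The call was lost with limma-voom (adjusted p = 0.11) and without IGFRlox 1, IGFRlox 2, IGFRlox 3, IGFRlox 4, MIGF1RKO 1 or MIGF1RKO 3 (adjusted p from 0.051 to 0.086). In MIGIRKO the lowest, median and highest were 2.05, 5.00 and 8.17 CPM, against 0.763, 0.574 and 1.5 CPM in IRIGFRlox, also apart (2.51 ± 0.56, adjusted p = 1.0e-03).

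MIRKO had 3.47, 2.56, 2.51 and 9.63 CPM of Cacnb4, against 3.5, 1.10 and 0.498 CPM in IRlox, with overlap (1.52 ± 0.57, adjusted p = 0.17). The high value is that of MIRKO 4, without which the change was 0.82 (adjusted p = 0.55). In QKO the range was 1.53 to 5.5 CPM, against 1.31 and 0.917 CPM in Qlox, apart but not called (1.53 ± 0.72, adjusted p = 0.42). Mean levels of Cacnb4 ran MIGF1RKO, MIGIRKO, MIRKO, QKO, IRlox, Qlox, IGFRlox and IRIGFRlox, so the 4 knockout groups stood above the 4 floxed groups, though all neighbours overlapped within their SD. Even so it stayed a minor subunit: per kilobase of exon, Cacnb4 counts were 2.07% ± 0.816 of Cacnb1 counts in MIGIRKO and 0.327% ± 0.252 in IRIGFRlox. Cacnb1 itself was not called (-0.34, adjusted p = 0.21). Exons of A430018G15Rik on the other strand cover 1433 of 8963 exon bases of Cacnb4, so its counts are uncertain to that extent.

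Kcnab1 (ENSMUSG00000027827, chromosome 3, 65109384 to 65378223, plus strand) encodes Kvβ1, a cytoplasmic subunit that modifies Kv1 potassium channels. It was below its controls in all 4 lines. QKO had 0.727, 1.24 and 2.39 CPM at the lowest, median and highest, against 15.8 and 10.1 CPM in Qlox, 8.32-fold lower (log2 change -3.06 ± 0.39, adjusted p = 7.8e-06). MIGIRKO had 1.29, 2.52 and 3.29 CPM, against 22.3, 7.08 and 12.4 CPM in IRIGFRlox (-2.60 ± 0.32, adjusted p = 5.8e-07). In MIGF1RKO, Kcnab1 had 3.32, 1.27, 1.21, 2.23 and 2.93 CPM, against 5.99, 11.7, 11.8 and 10.6 CPM in IGFRlox (-2.20 ± 0.35, adjusted p = 0.0010). None of these pairs overlapped, and these 3 calls held under all 11 alternatives, with changes from -3.08 to -2.72 in QKO, -2.74 to -2.12 in MIGIRKO and -2.24 to -2.12 in MIGF1RKO. MIRKO had 2.78, 2.56, 2.83 and 1.48 CPM, against 8.88, 5.78 and 4.48 CPM in IRlox, apart but just short of the threshold (-1.39 ± 0.39, edgeR adjusted p = 0.067). DESeq2 called it (adjusted p = 0.046), and without MIRKO 4 it was -1.20 (adjusted p = 0.25).

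The counts of Kcnab1 were small in the knockouts, 1 to 14 per QKO library and 8 to 24 per MIGIRKO library, so counting error is part of each value. The order of its mean levels was IRIGFRlox, Qlox, IGFRlox, IRlox, MIRKO, MIGIRKO, MIGF1RKO and QKO. The floxed groups thus all stood above the knockout groups, and the step between IRlox and MIRKO was the only one at which neighbouring mean ± SD ranges did not overlap. A330015K06Rik on the other strand shares 201 of the 8593 exon bases of Kcnab1.

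Kcna7 (ENSMUSG00000038201, chromosome 7, 45405653 to 45409763, plus strand) encodes Kv1.7, a pore subunit of the Kv1 family. Its lowest, median and highest levels in MIGIRKO were 159, 192 and 213 CPM, against 448, 501 and 425 CPM in IRIGFRlox, with no overlap (-1.29 ± 0.19, adjusted p = 7.3e-06). In QKO it had 295, 519 and 588 CPM at the lowest, median and highest, against 461 and 467 CPM in Qlox, so that QKO libraries lay on both sides of the controls (0.03, adjusted p = 0.98). MIRKO had 275, 355, 309 and 147 CPM, against 486, 459 and 452 CPM in IRlox, apart and just short of the threshold (-0.78 ± 0.21, adjusted p = 0.058). DESeq2 (adjusted p = 0.027) and limma-voom (adjusted p = 0.040) called it, and without MIRKO 4 it was -0.57 (adjusted p = 0.24). MIGF1RKO ranged from 374 to 421 CPM of Kcna7, against 423 to 654 CPM in IGFRlox, which did not overlap either (-0.32, adjusted p = 0.60). By mean level Kcna7 ran IGFRlox, QKO, IRlox, Qlox, IRIGFRlox, MIGF1RKO, MIRKO and MIGIRKO. The neighbours MIGF1RKO and MIRKO were the ones with mean ± SD ranges apart.

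Kcnn3 (ENSMUSG00000000794, chromosome 3, 89520164 to 89675132, plus strand) encodes SK3, a calcium-activated potassium channel known from denervated muscle. It rose in MIGIRKO, where it had 10.1, 12.6 and 16.4 CPM at the lowest, median and highest, against 4.43, 5.55 and 6.63 CPM in IRIGFRlox (1.19 ± 0.29, adjusted p = 0.0018), with no overlap. In MIRKO it had 9.25, 10.2, 15.2 and 9.04 CPM, against 6.19, 5.51 and 9.13 CPM in IRlox, which overlap by 1 library (0.63, adjusted p = 0.27). QKO had 3.49, 6.54 and 11.7 CPM at the lowest, median and highest, against 5.58 and 3.44 CPM in Qlox (0.78, adjusted p = 0.42), and MIGF1RKO averaged 8.28 ± 2.02 CPM and IGFRlox 9.32 ± 1.06 CPM (-0.19, adjusted p = 0.89). The order of mean levels was MIGIRKO, MIRKO, IGFRlox, MIGF1RKO, QKO, IRlox, IRIGFRlox and Qlox, with overlap between all neighbours.

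Aqp4 (ENSMUSG00000024411, chromosome 18, 15389496 to 15410982, minus strand) encodes aquaporin 4 and was the gene of the 9 called in opposite directions in 2 lines. In QKO it had 107, 111 and 141 CPM at the lowest, median and highest, against 51.8 and 36.0 CPM in Qlox. All 7 QKO libraries were above both controls, and Aqp4 rose by 1.40 ± 0.26 on the log2 scale (adjusted p = 0.0031). In MIGIRKO it had 22.0, 32.8 and 42.7 CPM at the lowest, median and highest, against 43.1, 60.1 and 79.1 CPM in IRIGFRlox. The ranges just missed each other, with a change of -0.87 ± 0.20 (adjusted p = 0.0015). MIRKO had 51.4, 56.2, 53.8 and 37.8 CPM, against 85.6, 67.7 and 104.1 CPM in IRlox, apart but not called by edgeR (-0.79 ± 0.22, adjusted p = 0.067). DESeq2 called it (adjusted p = 0.040), and without MIRKO 4 it was -0.68 (adjusted p = 0.25). MIGF1RKO averaged 101 ± 21.6 CPM and IGFRlox 97.4 ± 27.7 CPM (0.05, adjusted p = 0.97).

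Mean levels of Aqp4 ran QKO, MIGF1RKO, IGFRlox, IRlox, IRIGFRlox, MIRKO, Qlox and MIGIRKO, with every neighbouring pair overlapping in its mean ± SD, so Qlox was the lowest of the floxed groups. Between the 4 floxed groups, edgeR called 0 of the 9 genes and 0.264% of all genes. Of the 9, 6 had an unadjusted p under 0.05, where 11.2% of all genes did. DESeq2 called 1, Aqp4, and limma-voom 0. The edgeR p of Aqp4 was 4.6e-04 before adjustment (adjusted p = 0.086). Without Qlox 2 the QKO change of Aqp4 was 1.15 and no longer called (adjusted p = 0.31). Set against all 12 floxed libraries it was 0.65 (adjusted p = 0.0024). In MIGIRKO the call was lost with library totals and no scaling factor (-0.38, adjusted p = 0.14).

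Per kilobase of exon, the mean levels of the 9 transcripts in IRIGFRlox muscle ran from 361 CPM for Cacna1s through 210 for Kcna7, 170 for Scn4a, 152 for Scn4b and 53.1 for Clcn1 to 9.75 for Aqp4, 1.62 for Kcnab1, 0.530 for Kcnn3 and 0.105 for Cacnb4. Both genes that rose in MIGIRKO, Kcnn3 and Cacnb4, were the least abundant of the 9 in IRIGFRlox, which is also the reference of that change. In MIGIRKO itself Kcnab1 had the lowest mean, 2.28 CPM, against 5.37 CPM for Cacnb4 and 12.5 CPM for Kcnn3. The 5 genes most abundant in IRIGFRlox all fell in MIGIRKO, and so did the less abundant Aqp4 and Kcnab1. No link between level and change is read from this order.

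Counted together, MIGIRKO had 9 of 9 genes called, 2 higher and 7 lower, where 33.7% of all genes tested were called, 17% higher and 16.7% lower. MIRKO had 1 called (Scn4b, lower), with 1.25% of all genes called and 0.865% called lower. Without MIRKO 4 it had 0 called, and the changes of the genes not yet given without it were -0.15 for Scn4a, -0.13 for Clcn1, -0.22 for Cacna1s and 0.72 for Kcnn3 (adjusted p from 0.34 to 0.76). MIGF1RKO had 2 (Cacnb4 higher, Kcnab1 lower), with 0.616% of all genes called, and QKO 2 (Aqp4 higher, Kcnab1 lower), with 0.506% called and 0.454% called lower. The number of genes with ranges apart was 9 in MIGIRKO, 4 in MIRKO, 4 in MIGF1RKO and 5 in QKO, against 29.9%, 16.1%, 5.14% and 9.77% of all genes. The median log2 change of the 9 was -1.07 in MIGIRKO, -0.36 in MIRKO, -0.19 in MIGF1RKO and -0.07 in QKO, where the medians of all genes were 0.04, 0.03, 0.00 and 0.04. Because the genes were chosen with these values known, nothing is read from the shares.

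**Figure D3:**
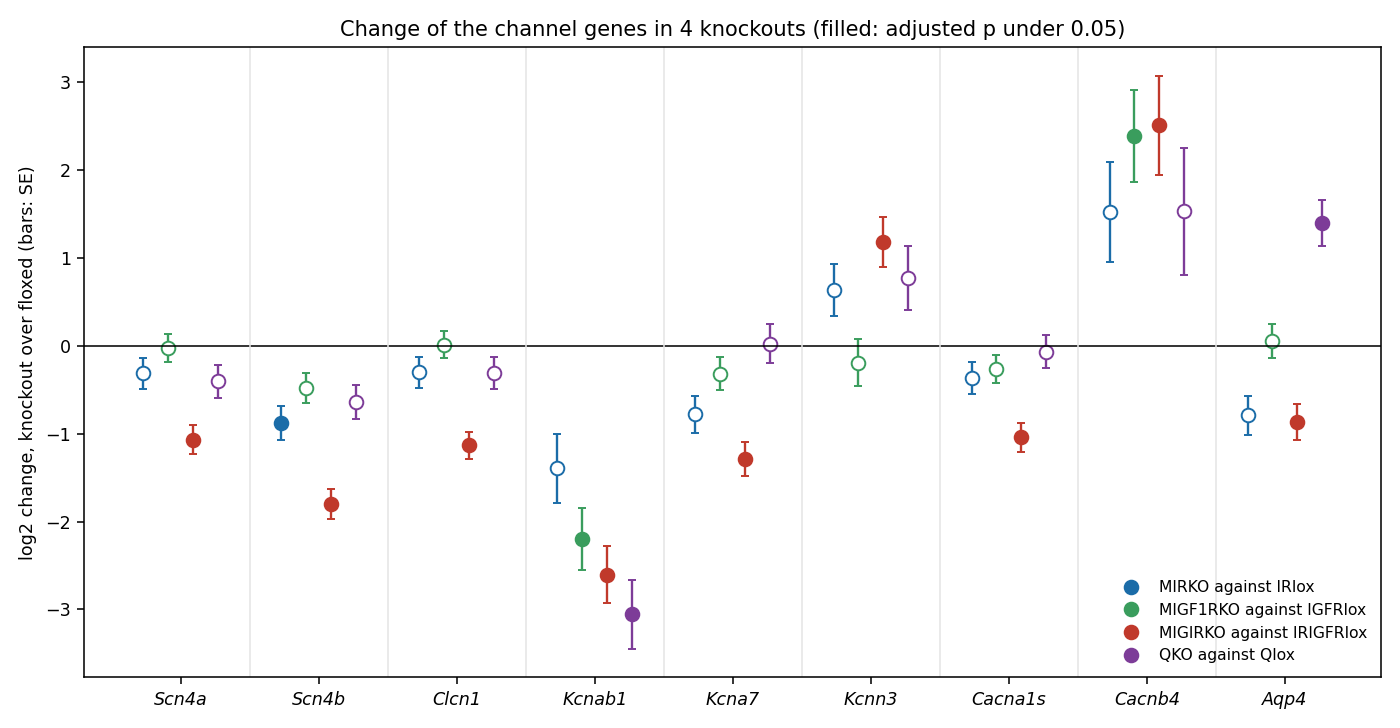
log2 changes of the 9 channel genes in each knockout group over its floxed controls, with bars of 1 SE; filled points are called at an adjusted p under 0.05. All 9 are called in MIGIRKO, with Scn4b at -1.80 and Cacnb4 at 2.51.

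Of the called changes in MIGIRKO, those of Scn4a, Scn4b, Clcn1, Cacna1s, Kcna7, Kcnab1, Kcnn3 and Cacnb4 held under all 11 alternatives, and those of all 9 held when each library was left out in turn. Library totals without scaling moved the median of all genes by 0.49 in MIGIRKO and 0.27 in MIRKO. With them the MIGIRKO changes were -0.57 for Scn4a, -0.64 for Clcn1 and -0.38 for Aqp4, which was not called. Taking the shift of the median off gives back the TMM values by construction and is no separate check. In the 3 runs of consecutive library numbers that held both groups, all 9 genes kept their direction in MIGIRKO, with Scn4a at -1.20 to -0.70 and Cacnb4 at 0.37 to 2.87. Kcnab1 was lower in MIGF1RKO in 3 of 3 runs (-2.19 to -0.78) and in QKO in 2 of 2 (-3.83 to -2.24), and Aqp4 was higher in QKO in 2 of 2 (1.11 to 1.96). For MIRKO, 1 run held both groups, and Scn4b differed there by -0.70.

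By its label QKO adds the deletion of FoxO1, FoxO3 and FoxO4 to that of the receptors, and its change over its own controls was set against that of MIGIRKO. In these counts Foxo3 was not lower in QKO, Foxo4 was already lower in MIGIRKO, and Igf1r was called lower in QKO (-1.09, adjusted p = 0.027) but not in MIGIRKO. The difference was called for 5 of the 9 genes, all positive, where 5.76% of all genes were called, 3.61% with a positive and 2.15% with a negative difference: Aqp4 (2.27 ± 0.33, adjusted p = 1.8e-04), Kcna7 (1.31 ± 0.31, adjusted p = 0.011), Scn4b (1.16 ± 0.28, adjusted p = 0.013), Cacna1s (0.97 ± 0.26, adjusted p = 0.025) and Clcn1 (0.82 ± 0.25, adjusted p = 0.045). It was not called for Scn4a (0.66 ± 0.25, adjusted p = 0.12), Kcnab1 (-0.45 ± 0.53, adjusted p = 0.67), Kcnn3 (-0.41 ± 0.46, adjusted p = 0.66) or Cacnb4 (-0.98 ± 0.96, adjusted p = 0.61). Kcnab1 is therefore the gene of the 9 called lower in both lines, and its interval leaves room for a difference either way. FoxO deletion, the difference in Igf1r and colony cannot be told apart in this comparison. The differences above are of TMM-scaled counts. Within libraries, mean Cacna1s relative to Ryr1 was above its controls in both lines. Mean Clcn1 relative to Acta1 was below its controls in both. The ratios of all 5 genes in QKO are given further below.

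**Figure D4:**
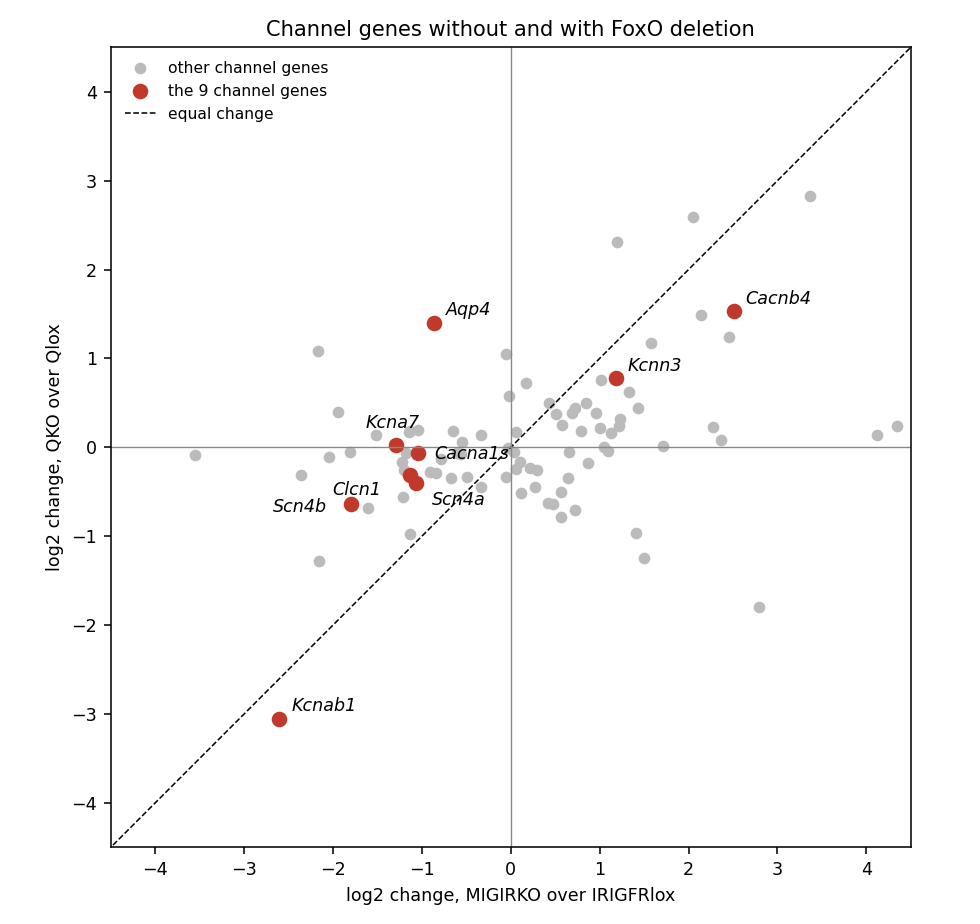
log2 change in QKO over Qlox (vertical axis) against that in MIGIRKO over IRIGFRlox (horizontal axis) for the 9 channel genes and 80 other channel genes; the dashed line marks equal changes. Kcna7 and Cacna1s lie near 0 on the QKO axis, Aqp4 lies at 1.40 against -0.87, and Kcnab1 lies close to the line at -3.06 against -2.60.

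Several of these differences rest on the 2 Qlox libraries. Without Qlox 1 the calls of Scn4b (adjusted p = 0.10), Kcna7 (0.090) and Cacna1s (0.062) were lost, and without Qlox 2 likewise (0.093, 0.087 and 0.25). That of Clcn1 was lost with no filter (adjusted p = 0.059), limma-voom (0.052), the compared groups alone (0.058) and library totals (0.37, adjusted p = 0.22), and with 20 of the single libraries left out. That of Cacna1s was also lost with library totals (0.52, adjusted p = 0.13). QKO 6 stands apart by its immune markers, which summed to 2718 CPM, against 220.9 CPM in the lowest QKO library; it had the lowest QKO values of Scn4a, Scn4b, Clcn1, Kcna7 and Cacna1s and the highest of Aqp4.

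The MIGIRKO change was also set against those of the single-receptor lines, and both sets share the MIGIRKO and IRIGFRlox libraries with the QKO comparison. Against MIGF1RKO, 7 of 9 differences were called, where 8.58% of all genes were, 3.67% positive and 4.91% negative: Scn4b (-1.32, adjusted p = 0.0025), Clcn1 (-1.15, adjusted p = 0.0029), Scn4a (-1.04, adjusted p = 0.0061), Kcna7 (-0.97, adjusted p = 0.024), Kcnn3 (1.38, adjusted p = 0.025), Cacna1s (-0.78, adjusted p = 0.033) and Aqp4 (-0.92, adjusted p = 0.039). Kcnab1 (-0.41 ± 0.49, adjusted p = 0.63) and Cacnb4 (0.12 ± 0.76, adjusted p = 0.94) were not called. With library totals, Kcna7 (adjusted p = 0.087), Cacna1s (0.20) and Aqp4 (0.22) lost the call. Aqp4 also lost it with no filter (0.050) and with the compared groups alone (0.057). So did Kcna7 without IRIGFRlox 2 (0.058), Kcnn3 without IRIGFRlox 1 (0.082) or MIGF1RKO 2 (0.050), Cacna1s without any 1 of 6 libraries (0.055 to 0.070) and Aqp4 without any 1 of 10 (0.052 to 0.16).

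Against MIRKO, edgeR called 0 of the 9 differences and 0% of all genes, with 5 of the 9 at an unadjusted p under 0.05 (10.4% of all genes). DESeq2 called 2, Scn4b and Clcn1, and limma-voom 0. The values were -0.92 ± 0.27 for Scn4b, -0.83 ± 0.24 for Clcn1 and -0.75 ± 0.24 for Scn4a. With MIRKO 4 and MIGIRKO 6 left out, 3 were called: Scn4b (-1.16, adjusted p = 0.0035), Clcn1 (-0.97, adjusted p = 0.0090) and Scn4a (-0.91, adjusted p = 0.017). Without MIRKO 4 alone the same 3 were called, Scn4b at -1.11 (adjusted p = 0.023), Clcn1 at -0.998 (adjusted p = 0.024) and Scn4a at -0.92 (adjusted p = 0.036). Whether the library labelled MIRKO 4 belongs to its group was not tested beyond the correlations given above.

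Transcripts of the fiber itself give another denominator for these levels. Ryr1, the calcium release channel of the fiber, also fell in MIGIRKO (-1.34 ± 0.20, adjusted p = 9.3e-06), and within libraries the ratio to Ryr1, per kilobase, was 44.8% ± 2.71 for Scn4a in MIGIRKO and 37.4% ± 3.55 in IRIGFRlox. For Clcn1 it was 13.5% ± 1.15 against 11.8% ± 1.99, for Kcna7 48.1% ± 7.22 against 46.9% ± 8.77, and for Cacna1s 99.0% ± 20.6 against 81.2% ± 16.5. Relative to Ryr1 the means of these 4 transcripts were thus not lower in MIGIRKO. Scn4b was, on average, at 24.5% ± 4.91 against 33.6% ± 2.89, although the ranges overlapped. Aqp4, called lower by CPM, was at 3.02% ± 0.916 of Ryr1 in MIGIRKO and 2.28% ± 1.135 in IRIGFRlox. Acta1, skeletal actin, was not called (-0.39, adjusted p = 0.11), and relative to it Scn4a was 0.568% ± 0.0728 in MIGIRKO and 0.896% ± 0.0775 in IRIGFRlox, with no overlap. Relative to Acta1 the means of Clcn1, Kcna7 and Cacna1s were also lower in MIGIRKO. They were 0.170%, 0.603% and 1.245%, against 0.281%, 1.11% and 1.917% in IRIGFRlox. Aqp4 was at 0.0375% of Acta1 in MIGIRKO and 0.0523% in IRIGFRlox, with ranges that overlapped. For Scn4a, Clcn1, Kcna7, Cacna1s and Aqp4, the direction of the difference in means, and not only its size, therefore differs with the denominator. Relative to Ryr1 each of these genes had overlapping ranges in MIGIRKO and IRIGFRlox. In QKO and Qlox the mean ratios to Ryr1 were 111.1% and 90.64% for Cacna1s and 12.47% and 12.1% for Clcn1. They were 57.07% and 44.63% for Kcna7, 28.95% and 35.4% for Scn4b, and 5.222% and 1.461% for Aqp4. Relative to Acta1 they were 2.248% and 2.946% for Cacna1s, 0.252% and 0.391% for Clcn1, and 1.157% and 1.436% for Kcna7. Scn4b was at 0.578% and 1.138%, and Aqp4 at 0.103% and 0.0476%. Whether ratios differ between lines was not tested.

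The other genes of the same channel families numbered 159, of which 80 were tested. In MIGIRKO, 18 were called higher and 23 lower, with a median of 0.29, where 33.7% of all genes were called, 17% higher and 16.7% lower. The counts by family below, and those of the pump, the dystrophin complex and the muscle and marker lists, stand against the same shares. MIRKO had 2 higher and 3 lower, MIGF1RKO 1 higher and 0 lower. In QKO edgeR called 0 of the 80, with 12 at an unadjusted p under 0.05, against 11.6% of all genes. DESeq2 called 1 there and limma-voom 0. The unadjusted counts in QKO for the pump and the dystrophin complex stand against the same 11.6%. The difference between QKO and MIGIRKO was called for 14, 9 positive and 5 negative. The lists of families were written with earlier results of these data known.

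Among the sodium channels, 4 of 8 rose and 1 fell in MIGIRKO. Scn3b, an accessory subunit, rose by 2.14, by 1.69 in MIRKO and by 1.53 in MIGF1RKO. In QKO it was 1.49 (adjusted p = 0.063). The MIRKO call held without MIRKO 4 (1.77, adjusted p = 0.037) and was lost without IRlox 2 (adjusted p = 0.070), without IRlox 3 (0.061) and with the compared groups alone (0.091). Scn7a rose by 1.01.

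Potassium channels held the most called genes, 8 higher and 15 lower of 40 in MIGIRKO. Kcng4, a modifier subunit of Kv2 channels, had 6.62 ± 5.34 CPM in MIGIRKO and 78.3 ± 5.28 CPM in IRIGFRlox (-3.55 ± 0.40). Kcnn2, the SK2 relative of Kcnn3, fell by 2.36. Both were also called lower in MIRKO, at -1.77 for Kcng4 and -1.82 for Kcnn2. Both MIRKO calls were lost without MIRKO 4, at -1.43 for Kcng4 and -1.52 for Kcnn2, each with an adjusted p of 0.15. Kcng4 also lost it without IRlox 1, IRlox 2, IRlox 3 or MIRKO 3, and Kcnn2 without IRlox 2, IRlox 3 or MIRKO 3 (adjusted p from 0.071 to 0.12). With the compared groups alone both were lost (adjusted p = 0.21 for Kcng4 and 0.12 for Kcnn2). That of Kcng4 was also lost with no filter (0.090) and with library runs as a block (0.091). In QKO neither was called, at -0.08 for Kcng4 and -0.32 for Kcnn2. The difference of QKO from MIGIRKO was 3.46 ± 0.65 for Kcng4 (adjusted p = 0.0027) and 2.04 ± 0.58 for Kcnn2 (adjusted p = 0.034). Kcnf1, another modifier subunit, fell by 2.16 in MIGIRKO. Kcne1l rose by 4.12 there, with 1.92 CPM in the library labelled MIGIRKO 6 and 13.4 to 25.8 CPM in the other MIGIRKO libraries; Kcns3 (2.37) and Kcnk3 (2.28) rose as well.

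For calcium channels, 4 of 14 rose and 2 fell in MIGIRKO. The α2δ1 subunit gene Cacna2d1, partner of Cav1.1, had 322 ± 153 CPM in MIGIRKO and 919 ± 254 CPM in IRIGFRlox (-1.52 ± 0.30), and Cacna2d4 fell by 2.17. Cacna1d, Cacng4 and Cacna1a rose by 2.45, 1.72 and 0.79. The call of Cacna1d was lost without IRIGFRlox 3 (1.96, adjusted p = 0.062) and that of Cacng4 without IRIGFRlox 1 (1.38, adjusted p = 0.093). Of 15 chloride channel genes, Clcn5 (1.58) and Lrrc8d (0.96) rose and 4 fell, among them Clcn3 (-1.22), Ano5 (-1.05) and Ano8 (-0.61). Without IRIGFRlox 2 the calls of Clcn5 (1.40, adjusted p = 0.071) and Lrrc8d (0.79, adjusted p = 0.053) were lost. That of Ano8 was lost without IRIGFRlox 1 (-0.30, adjusted p = 0.26) and with library totals (-0.11, adjusted p = 0.61). Ano5 is at the threshold, since its call was lost with no filter (adjusted p = 0.088), the compared groups alone (0.086), library totals (-0.56, adjusted p = 0.22) and 8 single libraries left out (adjusted p from 0.062 to 0.13). Among 3 other aquaporins, Aqp1, the water channel of capillary endothelium, fell by 0.49 in MIGIRKO. That call was lost with library totals (-0.00, adjusted p = 1), without MIRKO 4 and MIGIRKO 6 (adjusted p = 0.052) and without any 1 of 5 libraries (adjusted p from 0.050 to 0.078).

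**Figure D5:**
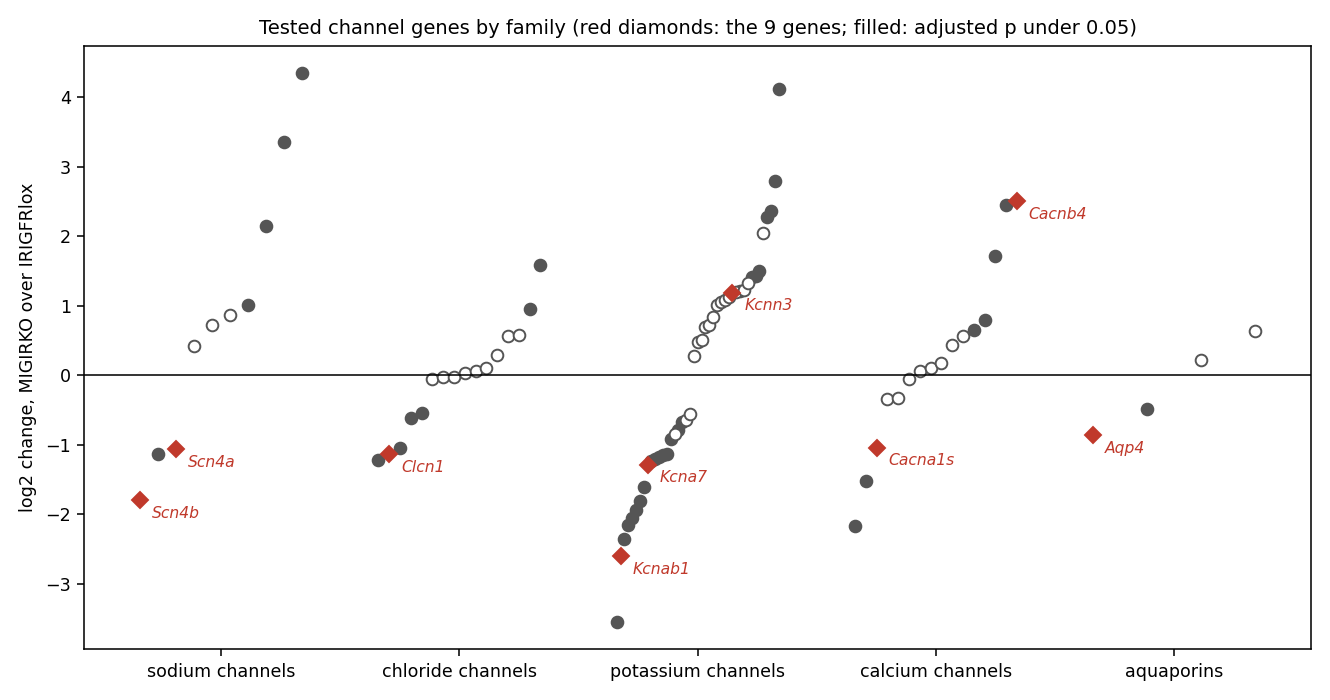
log2 changes of tested channel genes in MIGIRKO over IRIGFRlox, grouped by family, with the 9 described genes marked in colour and called genes filled. Sodium channels include Scn3b at 2.14 and Scn4b at -1.80, and potassium channels spread from Kcne1l at 4.12 to Kcng4 at -3.55.

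The sodium-potassium pump restores the gradients that these channels spend. Of its 7 genes, 3 rose in MIGIRKO, among them the β subunit gene Atp1b3 (0.63). In QKO edgeR called 0 of the 7, with 0 at an unadjusted p under 0.05 and 0 by DESeq2 or limma-voom.

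The dystrophin complex holds aquaporin 4 at the sarcolemma. In MIGIRKO, 7 of its 10 genes fell and 2 rose. Dmd, dystrophin itself, fell by 1.89 and Sgcd, δ-sarcoglycan, by 1.25, while Sntb1 (1.01) and Sntb2 (0.71) rose. The call of Sntb1 was lost without IRIGFRlox 1 (0.73, adjusted p = 0.070). That of Sntb2 was lost in 4 alternatives, with adjusted p from 0.053 to 0.078, and without any 1 of 4 libraries (0.054 to 0.17). In QKO edgeR called 0 of the 10, with 1 at an unadjusted p under 0.05 and 0 by DESeq2 or limma-voom.

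Other genes moved beside the channel changes, and their part in them was not tested. Of 11 genes known to rise in denervated or regenerating muscle, 9 rose and 1, Musk, fell in MIGIRKO, and the list summed to 273 to 1064 CPM in MIGIRKO and 122 to 128 CPM in IRIGFRlox. The lowest of these sums is MIGIRKO 6, and MIRKO 4 had 1052 CPM where the other MIRKO libraries had 201 to 240 CPM and IRlox 96.7 to 126 CPM. In the MIRKO group edgeR called 4 of these genes, all higher, DESeq2 8 and limma-voom 2. Without MIRKO 4 edgeR called 0 there. In MIGF1RKO edgeR called Chrna1 higher and Musk lower, DESeq2 2 genes and limma-voom 1, and without QKO 6 edgeR called Musk alone. In QKO edgeR called Myod1 higher, DESeq2 5 genes and limma-voom 0. That edgeR count was 0 without QKO 6 and 4 without MIRKO 4 and MIGIRKO 6. Myog, the myogenin gene, had 23.9 ± 6.16 CPM in MIGIRKO and 2.40 ± 0.858 CPM in IRIGFRlox. Of 8 fast fiber genes, 6 fell in MIGIRKO, where they summed to 50335 to 93211 CPM, against 156298 to 184149 CPM in IRIGFRlox. Of 8 slow fiber genes, 2 fell and 1 rose. Of 7 skeletal muscle markers, 5 fell.

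Markers of other cells also differed in MIGIRKO. All 6 adipocyte markers were called higher (sums of 219 to 995 CPM in MIGIRKO and 64.2 to 69.8 CPM in IRIGFRlox), all 6 immune markers (509 to 1443 CPM against 150 to 222 CPM), the 5 tested of 6 Schwann cell markers (222 to 469 CPM against 107 to 183 CPM, with Pmp2 at 0 in some libraries of both) and 4 of 5 fibroblast markers (3176 to 5867 CPM against 1888 to 3401 CPM). Endothelial markers had 0 of 6 called (284 to 393 CPM against 365 to 455 CPM), smooth muscle and pericyte markers 1 of 4, and satellite cell markers 1 of 3. Of the 35 tested markers of these 7 cell types, edgeR called 0 in MIRKO, 0 in MIGF1RKO and 0 in QKO. At an unadjusted p under 0.05 there were 6, 5 and 11, where the shares of all genes were 17.2%, 10.5% and 11.6%. DESeq2 called 1 in MIRKO and 0 in MIGF1RKO and QKO, and limma-voom 0 in each.

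As a measure of likeness, each gene's log2 CPM was centred on its mean over the 34 libraries and compared with that of 12353 genes by the root mean square difference. The channel gene most like Scn4a was Clcn1 (0.15), against a median of 0.55 over all genes. Clcn1 was most like Synm (0.14) and Scn4a. Scn4b was most like Lrrc20 (0.19) and Fbxo40 (0.22), and Kcna7 most like Rragd (0.19) and again Lrrc20 (0.20). Cacna1s was most like Myom1 (0.19) and Fry (0.20). Aqp4 was most like Tfrc (0.37) and Slco5a1 (0.40), and Kcnn3 most like Selenop (0.32) and Epb41l2 (0.32). Cacnb4 was most like Stbd1 (0.48) and Ccdc141 (0.53), and Kcnab1 most like Dkk3 (0.68) and Maob (0.68). The medians over all genes were 1.06 for Cacnb4 and 1.21 for Kcnab1. These differences grow with a gene's own spread. The root mean square deviation from the gene's own mean was 0.99 for Cacnb4, 1.16 for Kcnab1, 0.53 for Kcnn3 and 0.72 for Aqp4.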

How the data were processed

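The authors aligned reads to GRCm38.p4 with STAR and counted them per gene with featureCounts, per the submitters' processing notes; versions, annotation release and strand setting are not given in the sources used here. The deposited values are raw counts per Ensembl gene in 34 libraries, whole numbers with no normalization, and the libraries were made with a directional kit per the labels' protocols. Groups came from the labels alone. No 2 replicates agreed within sampling noise. Of the IDs, 45143 matched a symbol in GENCODE M21 (GRCm38).

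The count test was that of edgeR 4.0.16 under R 4.3.3, with DESeq2 1.42.0 and limma 3.58.1 as alternatives and data.table (1.17.8) for file reading. Python 3.11.15 (pandas 2.3.3, numpy 2.4.6, matplotlib 3.10.9) made tables and figures. After filterByExpr with the 8 groups (13646 genes) and TMM scaling, edgeR's quasi-likelihood model with 1 mean per group and robust shrinkage was fitted to all libraries. P-values were adjusted by Benjamini-Hochberg over all tested genes, and a gene was called under 0.05. The SE of a log2 change is its size over the square root of F. Fitted changes of low counts depend on edgeR's prior count. CPM errors are SD.

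The channel genes and all gene lists were chosen with earlier results of these data known. Beside the 9 genes and the targeted genes, text names per family or list and direction the up to 3 called genes of largest change whose mean log2 CPM reached 1, and the 2 genes most like each channel gene; genes named with a within-library ratio or as a marker came from the lists. Alternatives were the DESeq2 test, DESeq2 size factors, library totals, no filter, CPM above 1 in at least 3 libraries, limma-voom, a block for the 6 runs of adjacent library numbers, the 12 floxed libraries pooled as control, the compared groups alone, and leaving out libraries. In simulated data, 200 of the 13646 genes were changed in 1 knockout group at a time. There 2-fold changes were recovered for 55.2% of genes in MIGIRKO, 58.2% in MIGF1RKO, 47.8% in MIRKO and 37.3% in QKO. In the measured MIGIRKO comparison 33.7% of genes were called, so its simulated rate does not carry over to it. Promoters of chromosome 18 are not shown. Some genes that the rule for named genes covers are not reported here, and counts over a list include them.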

Additional observations from a re-analysis of the deposited data

Results flagged for a closer look

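Within groups of 4 or more libraries, 45 sets of values of the 9 channel genes were checked for a library far from the rest, and 2 were found; chance gives about 1 in 20. Clcn1 stood at 161 CPM in MIGIRKO 2, above the other MIGIRKO libraries, and Cacnb4 at 9.63 CPM in the library labelled MIRKO 4, above the other MIRKO libraries.

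Changes that differed between lines by a test of the difference itself, edgeR's quasi-likelihood test, were as follows. QKO minus MIGIRKO gave 1.16 for Scn4b, 0.82 for Clcn1, 1.31 for Kcna7, 0.97 for Cacna1s and 2.27 for Aqp4 on the log2 scale. MIGIRKO minus MIGF1RKO gave -1.04 for Scn4a, -1.32 for Scn4b, -1.15 for Clcn1, -0.97 for Kcna7, 1.38 for Kcnn3, -0.78 for Cacna1s and -0.92 for Aqp4.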

How the results depend on the processing

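The 9 channel genes called in MIGIRKO numbered 9 in every leave-one-out fit. Counts of called channel genes moved by over 1.5 times under some alternatives. The share of all genes called under each alternative is not given here. Nothing about the channel genes is therefore read from these counts or from those of the other channel genes below. In MIRKO the 1 called gene became 4 with DESeq2, 2 with limma-voom, 0 with library runs as a block, 9 with all 12 floxed libraries, 0 without MIRKO 4 and MIGIRKO 6, 4 without QKO 5 and QKO 6, and 0 with the compared groups alone. MIGF1RKO went to 1 with limma-voom and QKO to 4 with all floxed libraries. Library totals gave 3 for QKO minus MIGIRKO and 4 for MIGIRKO minus MIGF1RKO. MIGIRKO minus MIRKO gave 2 with DESeq2 and 3 without MIRKO 4 and MIGIRKO 6, and the floxed groups gave 1 with DESeq2. Leaving out 1 library at a time gave 0 to 4 in MIRKO, 1 to 2 in MIGF1RKO, 9 to 9 in MIGIRKO, 1 to 2 in QKO, 1 to 5 for QKO minus MIGIRKO, 0 to 3 for MIGIRKO minus MIRKO, 4 to 7 for MIGIRKO minus MIGF1RKO and 0 to 1 between floxed groups.

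Of the 80 other channel genes, those called in MIRKO numbered 5, but 23 with all floxed libraries, 3 without MIRKO 4 and MIGIRKO 6, 8 without QKO 5 and QKO 6 and 0 with the compared groups alone. In MIGF1RKO the number was 2 with DESeq2 and 3 with all floxed libraries, without MIRKO 4 and MIGIRKO 6, or with the compared groups alone. In QKO it was 1 with DESeq2, 11 with all floxed libraries and 1 without QKO 5 and QKO 6. Leaving out single libraries gave 0 to 8 in MIRKO, 1 to 2 in MIGF1RKO, 31 to 44 in MIGIRKO and 0 to 1 in QKO.

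The changes that turned sign were all uncalled. In MIGF1RKO, Scn4a was 0.061 with library totals, Clcn1 was -0.029 with library runs as a block and -0.062 with all floxed libraries, and Kcnn3 was 0.28 with all floxed libraries. In QKO, Kcna7 was -0.011 with limma-voom and -0.004 with all floxed libraries, and Cacna1s was 0.11 with library runs as a block and 0.30 with all floxed libraries. With library totals, Kcnab1 was 0.001 for MIGIRKO minus MIGF1RKO and Aqp4 0.16 for MIGIRKO minus MIRKO. Leaving out single libraries gave Scn4a -0.078 to 0.007, Clcn1 -0.019 to 0.056 and Aqp4 -0.075 to 0.21 in MIGF1RKO. It gave Kcna7 -0.031 to 0.11 and Cacna1s -0.26 to 0.16 in QKO, and Cacnb4 -0.084 to 1.69 and Aqp4 -0.27 to 0.16 for MIGIRKO minus MIRKO. For MIGIRKO minus MIGF1RKO it gave Kcnab1 -0.72 to 0.12 and Cacnb4 -0.12 to 0.55. The cause of these moves was not tested.

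No paired analysis was possible because replicate numbers here only count libraries and littermates are not identified. The library runs, used as a block and for differences within runs, tie libraries of adjacent numbers and not littermates. Depth limits Kcnab1, Cacnb4 and Kcnn3, whose counts were low, and the 2 Qlox libraries limit every QKO result.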
